A study of Mus musculus with 8 samples.

Results

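The insulin-like growth factor (IGF) genes measured here are 10 of the 22558 genes in the deposited fragment table. They are the ligand genes Igf1 and Igf2, the RNA gene H19 beside Igf2, the receptor gene Igf1r, and the binding protein genes Igfbp2, Igfbp3, Igfbp4, Igfbp5, Igfbp6 and Igfbp7. The table lists them in lower case, as igf1, igf2, h19, igf1r, igfbp2, igfbp3, igfbp4, igfbp5, igfbp6 and igfbp7. They were taken by symbol, as the IGF axis with the neighbour of Igf2, and all 10 passed the filter on low counts. Igfbp2 passed it through the MEF libraries alone, since it lay near 0 in the FAP+ tissue cells.

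RNA was sequenced from mouse cells in 4 groups of 2 libraries. FAP+ cells, which carry the membrane protease fibroblast activation protein of stromal cells, had been sorted from dissociated pancreas, skeletal muscle and visceral adipose tissue. The pancreas samples are labelled stellate cells. The last group is FAP- MEFs, embryonic fibroblasts that were sorted, grown in culture for 3 passages and sorted once more. No strain, genotype, age or treatment is given for any group in the labels used here. FAP status, embryonic origin and culture therefore all differ between the MEFs and the FAP+ cells, and their parts in any difference cannot be told apart. The duplicates are described as separate experiments, so the spread below is that between 2 experiments.

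IGF1 and IGF2 are secreted peptides that signal through the IGF1 receptor, a tyrosine kinase, to the PI3K and AKT pathway of growth and protein synthesis. Binding proteins hold most extracellular IGF, carry it, keep it from the receptor or release it when proteases cut them. Igf2 and H19 are imprinted neighbours, Igf2 expressed from the paternal and H19 from the maternal copy, both abundant in the mouse embryo and low in most tissues after birth. Stromal cells are a known local source of IGF1 in muscle and fat.

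The labels were set beside markers. Fap had 55.4 and 65.6 CPM in pancreas, 88.8 and 107 in muscle and 27.98 and 34.4 in adipose, against 2.37 and 0.516 in MEFs. The 9 fibroblast markers summed to 21948 to 25305 CPM in pancreas, 35651 to 38777 in muscle and 40793 to 49585 in adipose, against 3683 to 4927 in MEFs, none of them at 0. The 5 stellate markers summed to 703 to 956 CPM in pancreas, within reach of 814 to 819 in adipose, and Gfap had 0.104 and 0.468 CPM and Lrat 0.104 and 0.312 in pancreas, so the cells are called FAP+ pancreas cells here. Acinar markers summed to 42.4 to 90.9 CPM in pancreas, 0.319 to 0.644 in muscle and 1.30 to 5.87 in adipose, against 1.59 to 1.73 in MEFs. Genes that respond to tissue dissociation, 6 in the list, summed to 17025 to 17454 CPM in pancreas, 12928 to 15963 in muscle and 7461 to 9530 in adipose, against 358 to 429 in MEFs. They differ between FAP+ cells and MEFs in the same split as the IGF genes, and their part in the differences below was not tested. Estimated fragments totalled 15516319 to 27759399 per library. The first adipose library stood apart from the rest. Its log2 CPM correlated with the second adipose library at r = 0.918 across genes, beside 0.973 to 0.980 within the other groups, and its TMM factor was 0.516, where the other libraries had 0.889 to 1.31. Log2 differences of adipose cells printed below that moved by over 1.5 times or changed their call without it are therefore also given without it. Counts of pathway list genes are given with all libraries only.

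Against MEFs, the FAP+ cells of all 3 tissues had a different set of IGF transcripts. Igf1, Igfbp4, Igfbp6 and Igfbp7 were higher in each tissue, and Igf2, H19 and Igfbp2 were lower in each. Igfbp2, counted below among the lower genes, was tested only because of its level in MEFs. Igfbp5 was higher in pancreas and muscle cells but not in adipose cells, Igfbp3 was higher in pancreas cells, and Igf1r passed the test nowhere. Calls are at an adjusted p below 0.05 from edgeR's quasi-likelihood test, with Benjamini-Hochberg adjustment over 14847 genes. In pancreas cells 6 of the 10 genes were higher and 3 lower, where 23.1% of all tested genes were higher and 19.4% lower. In muscle cells 5 were higher and 3 lower, against 23.7% and 20% of all genes. In adipose cells 4 were higher and 3 lower, against 26.9% and 23.2% of all genes. The median log2 fold change of the 10 genes was 2.30 in pancreas, 1.25 in muscle and -0.11 in adipose, where that of all tested genes was 0.02, 0.03 and 0.05. These 3 comparisons share the MEF libraries, so they are not independent of each other. In such bulk samples, fewer cells that express a gene and less RNA of it per cell cannot be told apart.

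Some sequences of these loci are shown here. The Igf2 and H19 transcripts each hold a microRNA hairpin, and its mature products follow because both host transcripts were lower than in MEFs in all 3 tissues. They are from RefSeq on GRCm38.p6, a later build than the files' mm9, with the seed, bases 2 to 8, in capitals. The microRNAs themselves were not measured here.
mmu-miR-483-3p, within Igf2, chr7:142654932-142654952, minus strand: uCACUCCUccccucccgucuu
mmu-miR-483-5p, within Igf2, chr7:142654968-142654989, minus strand: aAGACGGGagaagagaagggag
mmu-miR-675-3p, within H19, chr7:142577078-142577099, minus strand: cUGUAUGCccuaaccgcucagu
mmu-miR-675-5p, within H19, chr7:142577112-142577133, minus strand: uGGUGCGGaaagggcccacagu
No seed is shared among these 4 microRNAs.

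Promoters of some genes that were higher in all 3 FAP+ tissues, Igf1 and Igfbp6, and of some that were lower in all 3, Igf2 and Igfbp2, are shown for comparison of their letters. Each window spans a RefSeq start site on GRCm38.p6 and lies mostly upstream of it, and capitals mark GGGCGG or its reverse complement CCGCCC, the GC box.
Igf1, chr10:87860861-87861160, plus strand: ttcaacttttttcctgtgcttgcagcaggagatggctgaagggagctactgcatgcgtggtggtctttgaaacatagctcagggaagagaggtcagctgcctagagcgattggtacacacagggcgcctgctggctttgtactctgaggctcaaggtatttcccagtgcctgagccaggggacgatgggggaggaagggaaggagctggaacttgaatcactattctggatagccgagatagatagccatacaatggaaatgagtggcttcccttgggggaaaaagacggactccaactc
Igfbp6, chr15:102143936-102144235, plus strand: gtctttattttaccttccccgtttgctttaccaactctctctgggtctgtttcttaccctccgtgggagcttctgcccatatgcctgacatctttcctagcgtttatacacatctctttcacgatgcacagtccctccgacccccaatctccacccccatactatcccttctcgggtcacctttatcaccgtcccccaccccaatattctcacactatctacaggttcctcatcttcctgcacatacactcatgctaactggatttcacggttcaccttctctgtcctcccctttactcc
Igf2 (start site 4 of 4), chr7:142657447-142657746, minus strand: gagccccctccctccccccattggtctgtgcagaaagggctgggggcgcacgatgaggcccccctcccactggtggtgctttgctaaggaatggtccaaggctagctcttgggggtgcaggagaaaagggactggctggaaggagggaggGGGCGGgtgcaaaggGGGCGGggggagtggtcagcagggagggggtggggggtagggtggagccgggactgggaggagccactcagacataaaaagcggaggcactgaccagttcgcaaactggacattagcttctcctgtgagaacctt
Igfbp2 (start site 1 of 2), chr1:72824230-72824529, plus strand: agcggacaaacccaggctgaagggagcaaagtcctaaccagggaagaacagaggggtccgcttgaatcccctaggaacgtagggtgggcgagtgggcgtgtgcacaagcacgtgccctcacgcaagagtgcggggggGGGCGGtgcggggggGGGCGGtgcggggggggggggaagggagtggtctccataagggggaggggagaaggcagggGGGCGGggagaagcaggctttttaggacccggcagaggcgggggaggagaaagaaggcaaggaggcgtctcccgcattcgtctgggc
The GC box, searched on both strands, was in 35.7% of 32851 promoters of this length. It occurred 2 times in the Igf2 window and 3 times in the Igfbp2 window, and in neither Igf1 nor Igfbp6. The other 3 Igf2 windows held 0, 0 and 1, and the second Igfbp2 window held 0, so the windows shown have the most GC boxes of their gene. Igfbp7 and Igfbp4 were also higher in all 3 tissues. The Igfbp7 window held 4, the most of any window here, and the Igfbp4 window none. That of Igf1r held 2, and those of Igfbp3 and Igfbp5 none. The windows thus show no GC box contrast that runs through all higher and lower genes. The Igf1 window held 6 CG pairs, the Igfbp6 window 8, the Igf2 window shown 7 and the Igfbp2 window shown 18, beside a median of 7 over all promoters. TATAAA, on either strand, was in the windows of Igfbp6 and Igfbp4 and in 13.6% of all promoters, while TGCCGC was in 1 Igf2 and 1 Igfbp2 window that are not shown and in 11.6%. These matches describe letters in a window and were not tested against the RNA levels.

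Levels of a gene are given as normalized CPM, in which fragments are scaled to library size with TMM factors, and they compare libraries for 1 gene at a time. Between genes, levels are compared only per transcript length, as FPKM or RPKM. The amplification used here gives coverage that leans to the 3' end, and its effect on such comparisons was not tested.

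**Figure D1:**
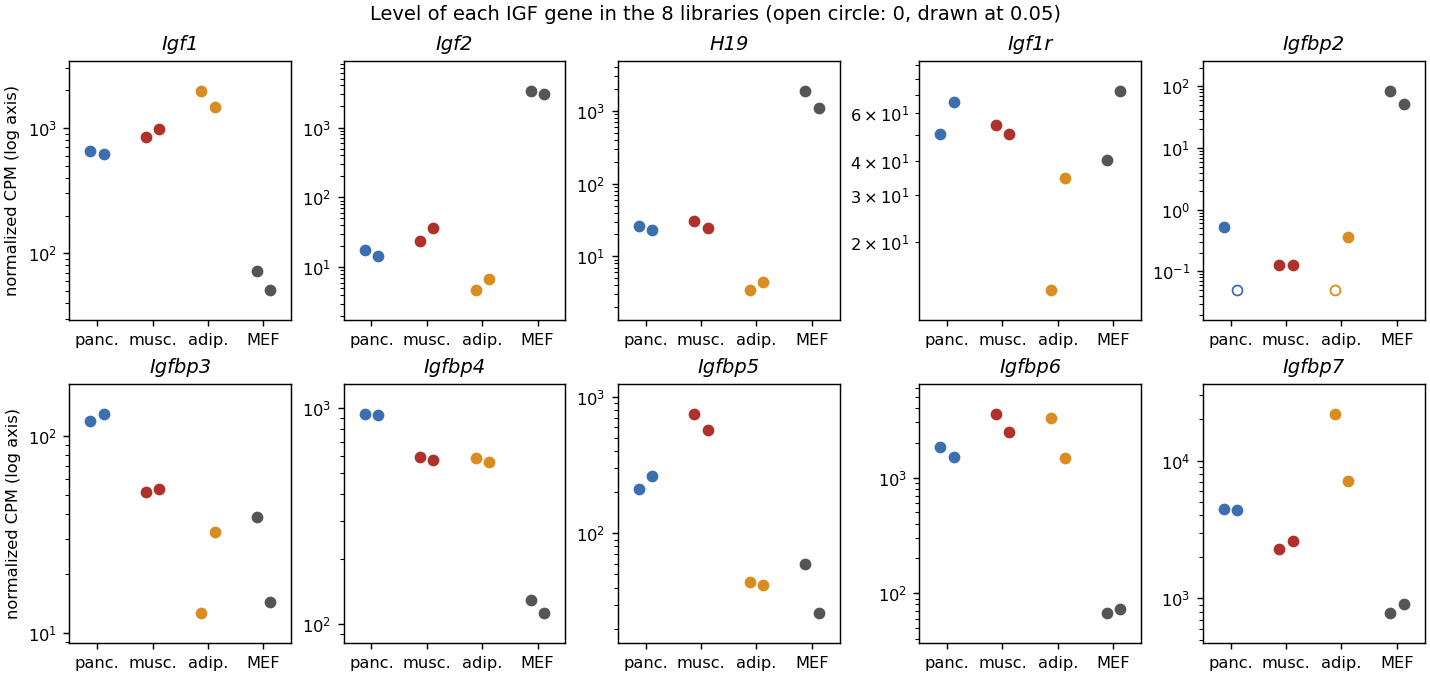
Normalized CPM (log axis) of the 10 genes in each library, as 2 points per group, for pancreas, muscle and adipose FAP+ cells and FAP- MEFs; values of 0 are open circles set near the foot of the panel. Igf2, H19 and Igfbp2 stand highest in MEFs, while Igf1, Igfbp4, Igfbp6 and Igfbp7 stand lowest there.

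Igf1, the ligand that growth hormone induces, was higher in every FAP+ library than in either MEF library. It had 649 and 619 CPM in pancreas cells, 853 and 984 in muscle cells and 1969.9 and 1457 in adipose cells, against 71.7 and 50.9 in MEFs. The groups did not overlap, and the adipose libraries were the highest. The means were 634 ± 21.4 CPM in pancreas, 918 ± 92.7 in muscle, 1713 ± 363 in adipose and 61.3 ± 14.7 in MEFs (SD, n = 2 each). Pancreas cells were 10.3-fold above MEFs (log2 3.37 ± 0.35 SE, edgeR adjusted p = 0.00034). Muscle cells were 14.98-fold above MEFs (log2 3.90 ± 0.36 SE, adjusted p = 0.0002). Adipose cells were 27.9-fold above MEFs (log2 4.80 ± 0.38 SE, adjusted p = 8.7e-05). These calls held in 20 of 20 alternative analyses in each tissue, and without the first adipose library the adipose difference was log2 4.58. Macrophages, a known source of IGF1, were looked for by 8 markers of macrophages and leukocytes. Their summed level was 8.94 to 9.02 CPM in pancreas, 16.9 to 20.7 in muscle, 31.1 to 40.9 in adipose and 5.04 to 6.80 in MEFs. Cd14 alone had 6.20 and 5.66 CPM in pancreas, 17.7 and 14.7 in muscle, 18.3 and 19.4 in adipose and 3.09 and 4.80 in MEFs. It carried much of the sum and set muscle above pancreas in it. Cd68 had 0.834 and 1.35 CPM in pancreas, 0.829 and 0.815 in muscle, 4.88 and 1.99 in adipose and 1.29 and 1.55 in MEFs. Adgre1 and C1qa were at 0 in MEFs and none of the 8 was at 0 in an FAP+ group. Their part in the Igf1 difference was not tested.

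Igf2, the growth factor of the embryo, went the other way by a wider margin. It had 17.9 and 14.4 CPM in pancreas cells, 23.7 and 36.3 in muscle cells and 4.73 and 6.73 in adipose cells, against 3339 and 3056 in MEFs. The MEF libraries lay far above all 6 FAP+ libraries, and adipose cells were the lowest. Mean levels were 16.2 ± 2.43 CPM in pancreas, 30.0 ± 8.92 in muscle, 5.73 ± 1.42 in adipose and 3198 ± 200.4 in MEFs (SD, n = 2 each). Igf2 fell 198-fold in pancreas cells relative to MEFs (log2 -7.63 ± 0.46 SE, edgeR adjusted p = 5.1e-05). In muscle cells it was 106-fold lower (log2 -6.73 ± 0.44 SE, adjusted p = 6.2e-05). In adipose cells it was 555-fold lower (log2 -9.12 ± 0.49 SE, adjusted p = 3.3e-05). The Igf2as transcript, antisense to Igf2, was listed at 0.052 and 0 CPM in pancreas, 0.128 and 0.172 in muscle and 0.152 and 0.041 in adipose, against 2.82 and 2.00 in MEFs. The sources used here do not say whether counting used the strand, so reads of Igf2 and Igf2as may be mixed.

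The ratio of the ligands turned over between the groups. Per transcript length, Igf1 FPKM divided by Igf2 FPKM was 14.2 and 16.7 in pancreas, 14.0 and 10.6 in muscle and 163 and 84.2 in adipose, against 0.0084 and 0.0065 in MEFs. Igf1 thus led in all 6 FAP+ libraries and Igf2 in both MEF libraries. On the RPKM scale the ratio was 9.69 and 12.6 in pancreas, 9.92 and 8.47 in muscle, 110 and 103 in adipose and 0.0062 and 0.0039 in MEFs, which leaves the order as it was. Summed FPKM of both ligands was 28.4 and 29.7 in pancreas, 34.7 and 42.8 in muscle and 39.7 and 55.5 in adipose, against 539 and 457 in MEFs.

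H19, the maternally expressed RNA whose gene neighbours Igf2, followed the direction of Igf2. It had 26.0 and 22.8 CPM in pancreas cells, 30.6 and 24.3 in muscle cells and 3.43 and 4.42 in adipose cells, against 1896 and 1106 in MEFs. No FAP+ library reached the MEF range, and adipose cells were again lowest. H19 was 61.5-fold lower in pancreas cells than in MEFs (log2 -5.94 ± 0.43 SE, edgeR adjusted p = 7.4e-05). It was 54.8-fold lower in muscle cells (log2 -5.78 ± 0.42 SE, adjusted p = 8.2e-05). In adipose cells it was 380-fold lower (log2 -8.57 ± 0.48 SE, adjusted p = 3.4e-05). Without the first adipose library the adipose difference was -8.89 for Igf2 and -8.40 for H19 on the log2 scale. The calls of Igf2 and H19 held in 20 of 20 alternative analyses in every tissue.

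Igf1r, the receptor of both ligands, passed the test in no tissue. It had 50.4 and 66.0 CPM in pancreas cells, 54.0 and 50.1 in muscle cells and 13.3 and 34.6 in adipose cells, against 40.4 and 72.5 in MEFs. Pancreas and muscle cells lay within the MEF range, and only adipose cells lay below it. The log2 difference from MEFs was 0.04 with a 95% interval of -1.03 to 1.12 in pancreas and -0.12 with -1.19 to 0.96 in muscle. In adipose it was -1.23 with -2.32 to -0.14 and an edgeR adjusted p of 0.061. That adipose difference passed in 7 of 20 alternative analyses, among them DESeq2 (adjusted p = 0.035), the fit with the replicate number as a block (log2 -1.28, adjusted p = 0.027) and limma on log2(FPKM + 1) (log2 -1.77, adjusted p = 0.029). Without the first adipose library the adipose difference was -0.71 (adjusted p = 0.152), and without the second it was -2.09 (adjusted p = 0.0027).

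**Figure D2:**
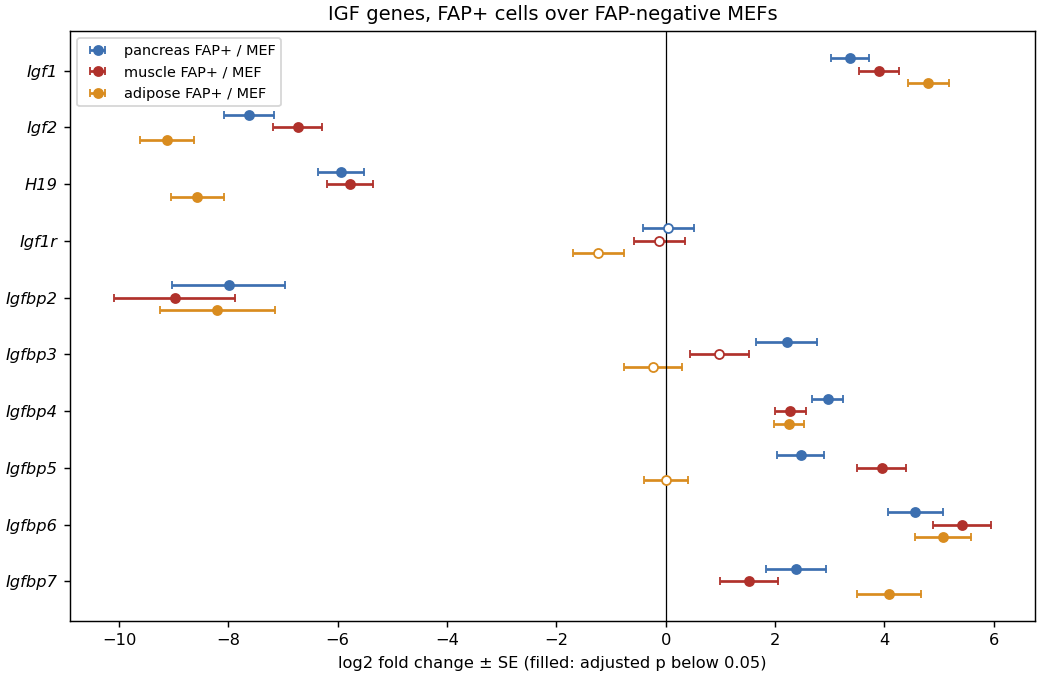
Log2 fold change of each gene in pancreas, muscle and adipose FAP+ cells over MEFs, with the standard error of the edgeR fit as bars to either side; filled points passed at an adjusted p below 0.05. The bars of Igf1r include 0 in pancreas and muscle, and those of Igf2, H19 and Igfbp2 lie at the far negative end.

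Among the binding proteins, Igfbp2, abundant in the rodent fetus, was nearly absent from FAP+ cells. It had 0.521 and 0 CPM in pancreas cells, 0.128 and 0.129 in muscle cells and 0 and 0.365 in adipose cells, against 84.2 and 51.1 in MEFs. The summed fragments were 10 in pancreas, 5 in muscle and 9 in adipose, against 4491 in MEFs. MEFs exceeded pancreas cells by a ratio of 260, with a 95% interval of 141 to 543 that covers counting error only. The ratio was 528 (226 to 1628) over muscle and 284 (150 to 622) over adipose. The edgeR adjusted p was 0.00082 in pancreas, 0.00067 in muscle and 0.00071 in adipose, and all 3 calls held in 20 of 20 alternatives. Wherever a filter on level was used, Igfbp2 passed it through the MEF libraries alone. It could there be called only as lower than MEFs, so these calls add no support to that direction. Without the first adipose library, which had no fragment, the adipose difference was log2 -7.51.

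Igfbp6, which binds IGF2 more tightly than IGF1, had the largest fold rise of the binding proteins in all 3 tissues. It had 1831 and 1494 CPM in pancreas cells, 3551 and 2484 in muscle cells and 3258 and 1472 in adipose cells, against 67.4 and 73.6 in MEFs. FAP+ and MEF libraries did not overlap, while the 3 tissues did overlap in part, with adipose cells spanning the pancreas range. Pancreas cells were 23.6-fold above MEFs (log2 4.56 ± 0.50 SE, edgeR adjusted p = 0.00041). Muscle cells were 42.8-fold above MEFs (log2 5.42 ± 0.52 SE, adjusted p = 0.00024). Adipose cells were 33.6-fold above MEFs (log2 5.07 ± 0.52 SE, adjusted p = 0.00026), and log2 4.39 without the first adipose library.

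Igfbp7, a secreted relative with low affinity for IGF that is abundant in vessel walls and stroma, was higher in all 3 tissues than in MEFs. It had 4453 and 4379 CPM in pancreas cells, 2279 and 2596 in muscle cells and 21756 and 7051 in adipose cells, against 783 and 912 in MEFs. The adipose libraries were the highest but differed widely from each other. Igfbp7 was 5.21-fold above MEFs in pancreas cells (log2 2.38 ± 0.54 SE, edgeR adjusted p = 0.010). It was 2.88-fold above MEFs in muscle cells (log2 1.52 ± 0.53 SE, adjusted p = 0.049). It was 17.0-fold above MEFs in adipose cells (log2 4.09 ± 0.59 SE, adjusted p = 0.0012). Without the first adipose library the adipose difference was log2 3.06. The adipose call held in 20 of 20 alternatives, that of pancreas in 16 and that of muscle in 9. Leaving out either library of pancreas or of MEFs ended the pancreas call, and leaving out any library of muscle, pancreas or MEFs ended the muscle call, with adjusted p up to 0.074 and 0.198. Endothelial cells also express Igfbp7, and 6 endothelial markers summed to 64.5 to 75.5 CPM in pancreas, 97.0 to 149 in muscle and 261 to 310 in adipose, against 2.82 to 3.48 in MEFs, with none at 0 in any group. Tek made up most of the pancreas and muscle sums, with 58.0 and 68.7 CPM in pancreas and 86.3 and 102 in muscle. In pancreas, Cdh5 had 0.156 and 0.052 CPM and Emcn 0.417 and 0.104, against 0.120 and 0, and 1.71 and 0.880, in MEFs. Pecam1 had 1.41 and 0.935 and Kdr 4.43 and 5.46 in pancreas, against 0.240 and 0.061, and 0.510 and 1.34, in MEFs. Adipose cells had 57.7 and 114 CPM of Pecam1, 47.3 and 31.2 of Cdh5, 36.1 and 24.1 of Emcn, 32.8 and 31.8 of Kdr and 51.6 and 83.6 of Tek. Muscle cells had 4.08 and 20.2 CPM of Pecam1, 1.47 and 5.96 of Cdh5, 1.34 and 5.32 of Emcn and 2.87 and 9.48 of Kdr. The part of endothelial cells in the Igfbp7 and Igfbp3 levels was not tested.

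Igfbp4, an inhibitory binding protein that the protease PAPP-A cuts, was higher in all 3 tissues. It had 942 and 934 CPM in pancreas cells, 595 and 577 in muscle cells and 587 and 563 in adipose cells, against 129 and 112 in MEFs. Every FAP+ library lay above both MEF libraries, and the pancreas libraries were the highest. It was 7.78-fold above MEFs in pancreas cells (log2 2.96 ± 0.29 SE, edgeR adjusted p = 0.00024). It was 4.86-fold above MEFs in muscle cells (log2 2.28 ± 0.28 SE, adjusted p = 0.00062). It was 4.77-fold above MEFs in adipose cells (log2 2.25 ± 0.28 SE, adjusted p = 0.00059). The adipose duplicates were close in normalized CPM but had 167 and 300.8 FPKM, and the adipose difference was log2 1.12 by limma on log2(FPKM + 1) (adjusted p = 0.0397) and 1.02 on log2(RPKM + 1), where it missed the threshold (adjusted p = 0.055). Its calls held in 20 of 20 alternatives in pancreas and muscle and in 19 in adipose.

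Igfbp5, a binding protein that attaches to extracellular matrix, was highest in muscle cells. It had 209 and 263 CPM in pancreas cells, 747 and 572 in muscle cells and 43.7 and 42.1 in adipose cells, against 59.5 and 26.0 in MEFs. Adipose cells lay inside the MEF range, and muscle cells lay above every other library. Pancreas cells were 5.53-fold above MEFs (log2 2.47 ± 0.43 SE, edgeR adjusted p = 0.0032). Muscle cells were 15.4-fold above MEFs (log2 3.95 ± 0.46 SE, adjusted p = 0.0005). The log2 difference of adipose cells from MEFs was 0.00 with a 95% interval of -0.94 to 0.95 (adjusted p = 0.995).

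Igfbp3, the main IGF carrier in serum, was highest in pancreas cells. It had 119 and 129 CPM in pancreas cells, 51.6 and 53.5 in muscle cells and 12.7 and 32.6 in adipose cells, against 39.0 and 14.4 in MEFs. Adipose cells and MEFs overlapped, and pancreas cells lay above all other libraries. Pancreas cells were 4.63-fold above MEFs (log2 2.21 ± 0.56 SE, edgeR adjusted p = 0.015). The call held in 14 of 20 alternatives and was lost without either pancreas library or without the second MEF library (adjusted p up to 0.078). In muscle the log2 difference from MEFs was 0.98 with a 95% interval of -0.28 to 2.23, and in adipose it was -0.23 with -1.48 to 1.014.

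Per transcript length, the makeup of binding protein RNA differed between the groups in which gene led. Igfbp6 and Igfbp7 together made up most of the summed FPKM of the 6 binding protein genes in every FAP+ library. In pancreas cells Igfbp7 held 49.3% and 52.3% and Igfbp6 36.7% and 32.3%. In muscle cells Igfbp6 led with 66.1% and 56.0%. In adipose cells Igfbp7 led with 76.8% and 67.8%, as it did in MEFs with 62.0% and 70.8%. Igfbp2 held 11.9% and 7.10% in MEFs and almost nothing elsewhere. The RPKM table gives another order in pancreas, where Igfbp6 held 46.2% and 42.8% and Igfbp7 27.2% and 29.9%. It keeps Igfbp6 first in muscle, with 72.3% and 65.0%, and Igfbp7 first in adipose, with 58.8% and 44.9%, and in MEFs, with 35.8% and 45.9%. The summed FPKM of binding proteins over that of both ligands was 163 and 160.1 in pancreas, 134 and 93.6 in muscle and 180 and 88.6 in adipose, against 1.84 and 2.05 in MEFs. On the RPKM scale it was 244 and 283 in pancreas, 296 and 180 in muscle and 69.4 and 59.9 in adipose, against 2.08 and 1.93 in MEFs, so adipose cells lay below the other FAP+ cells on that scale and overlapped them on the FPKM scale. No test was run on these shares.

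**Figure D3:**
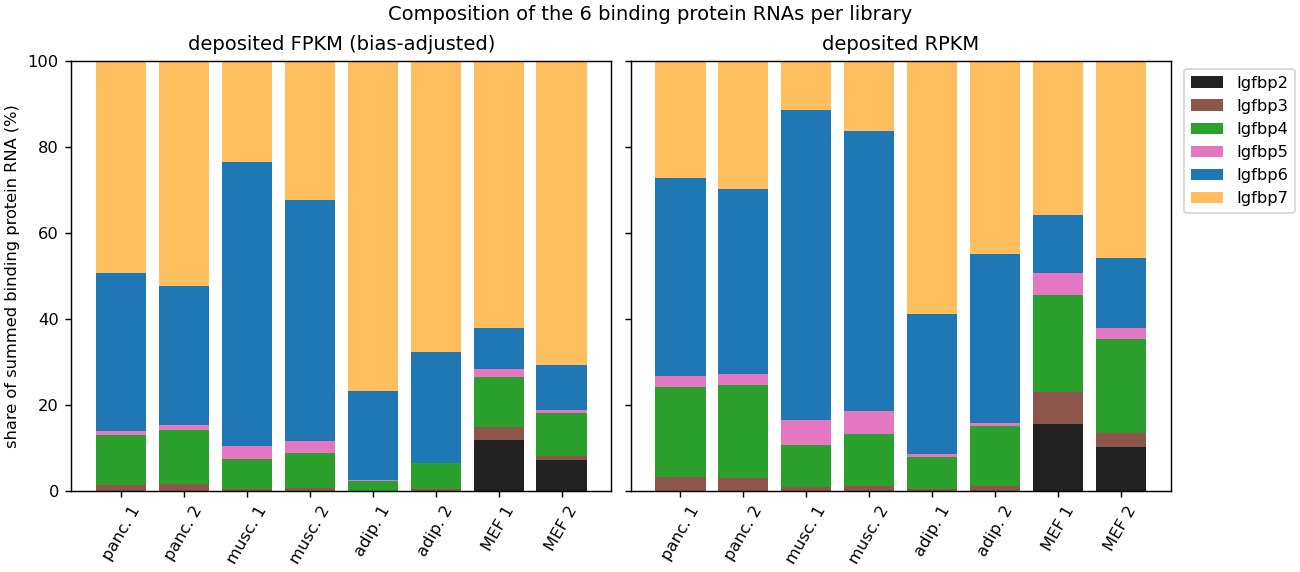
Share (percent) of each of the 6 binding protein genes in their summed FPKM, left, and summed RPKM, right, per library of pancreas, muscle and adipose FAP+ cells and MEFs. Igfbp6 leads in both muscle libraries on either scale, and Igfbp2 is visible only in MEFs.

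Between the FAP+ tissues the differences were smaller and mostly set adipose cells apart. Igf2, H19 and Igfbp5 were higher in both pancreas and muscle cells than in adipose cells. Igfbp3 was higher and Igf1 lower in pancreas than in adipose cells, and Igfbp7 was lower in muscle than in adipose cells. Of the 10 genes 4 were higher and 1 lower in pancreas than in adipose, where 3.32% and 5.73% of all tested genes were. In muscle against adipose 3 were higher and 1 lower, where 2.34% and 3.78% of all genes were. The 2 comparisons share the adipose libraries, and many of these calls ended when 1 library was left out.

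H19 was 6.18-fold higher in pancreas than in adipose cells (log2 2.63 ± 0.37 SE, edgeR adjusted p = 0.0077). It was 6.94-fold higher in muscle than in adipose cells (log2 2.79 ± 0.38 SE, adjusted p = 0.0091). These calls held in 18 and 17 of 20 alternatives and ended without either pancreas library in the first comparison and without either muscle library in the second (adjusted p up to 0.081 and 0.092). Igf2 was 2.81-fold higher in pancreas (log2 1.49 ± 0.36 SE, adjusted p = 0.043) and 5.22-fold higher in muscle (log2 2.38 ± 0.37 SE, adjusted p = 0.013) than in adipose cells. The muscle call of Igf2 held in 15 of 20 alternatives and ended without either muscle library (adjusted p up to 0.109). The pancreas call of Igf2 held in 6 of 20 and survived only the loss of the second adipose library among the 8 left out in turn (adjusted p up to 0.249). Igf1 was 2.70-fold lower in pancreas than in adipose cells (log2 -1.43 ± 0.33 SE, adjusted p = 0.037), in 9 of 20 alternatives. That call ended without any 1 of the libraries of pancreas, muscle or MEFs (adjusted p up to 0.241).

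Igfbp5 was 5.51-fold higher in pancreas than in adipose cells (log2 2.46 ± 0.43 SE, edgeR adjusted p = 0.015). It was 15.4-fold higher in muscle than in adipose cells (log2 3.94 ± 0.46 SE, adjusted p = 0.0063). The pancreas call held in 18 of 20 alternatives, ending without either pancreas library (adjusted p up to 0.117), and the muscle call in 19, ending without the first muscle library (adjusted p = 0.055). Igfbp3 was 5.44-fold higher in pancreas than in adipose cells (log2 2.44 ± 0.56 SE, adjusted p = 0.038), in 11 of 20 alternatives. It ended without any library of pancreas or muscle or the first of adipose (adjusted p up to 0.181). Igfbp7 was 5.91-fold lower in muscle than in adipose cells (log2 -2.56 ± 0.55 SE, adjusted p = 0.038), in 10 of 20 alternatives. It ended without any library of muscle, pancreas or MEFs, and its log2 difference was -1.54 without the first adipose library (adjusted p up to 0.285 over the libraries left out).

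Pancreas and muscle cells differed in none of the 10 genes at an adjusted p below 0.05 by edgeR on all 4 groups. Of all tested genes 1.54% were higher and 2.14% lower in pancreas. At an unadjusted p below 0.05 there were 3 of the 10, Igf2, Igfbp4 and Igfbp5, and DESeq2 called 2. The edgeR fit of only these 2 groups called 5, Igf2, Igfbp3, Igfbp5, Igfbp6 and Igfbp7, and 1752 genes over the whole table. The widest was Igfbp5, whose log2 difference of pancreas over muscle was -1.48 with a 95% interval of -2.44 to -0.52 (adjusted p = 0.115). The interval of Igf1 was -1.28 to 0.21, that of Igf1r -0.92 to 1.24 and that of H19 -0.97 to 0.64, so differences of about a log2 unit are not shown to be absent.

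**Figure D4:**
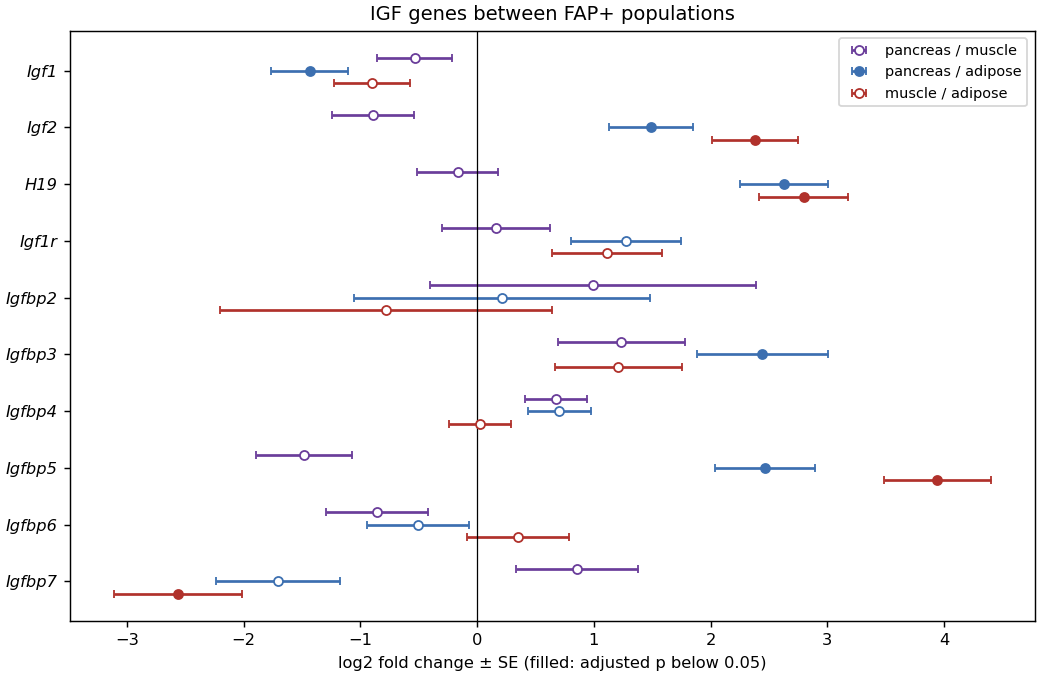
Log2 fold change of each gene for pancreas over muscle, pancreas over adipose and muscle over adipose FAP+ cells, with the standard error of the edgeR fit as bars to either side; filled points passed at an adjusted p below 0.05. No point of pancreas over muscle passed, and Igfbp5 lies farthest to the right in muscle over adipose.

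From high to low mean CPM the order was adipose, muscle, pancreas and MEF for Igf1, and neighbouring tissues in it, pancreas and muscle or muscle and adipose, did not differ at the threshold. For Igf2 it was MEF, muscle, pancreas, adipose, where muscle and pancreas did not differ at the threshold. The genes whose log2 CPM over the 8 libraries was most like Igf1, among 8222 genes with at least 10 CPM on average, were Ctsk (Pearson r 0.998), Dhrs7 (0.997) and Inmt (0.997). For Igf2 they were Tiam2 (0.995), Srpk1 (0.991) and Aopep (0.989). These r values describe 8 libraries that fall into FAP+ cells and MEFs, and they mostly follow that split.

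The first adipose library stood apart in how its reads were turned into fragments, and this touches the receptor. Whole reads per gene were recovered from the RPKM values, so the bias-adjusted fragments can be divided by reads. For Igf1r this ratio was 0.575 and 0.767 in pancreas, 0.751 and 0.768 in muscle, 0.129 and 0.633 in adipose and 0.828 and 0.750 in MEFs. Over all genes with at least 20 reads, the median ratio was 0.823 in the first adipose library and 1.07 to 1.20 in the others. The reads of Igf1r were 1682 and 1655 in pancreas, 1128 and 1522 in muscle and 1360 and 1345 in adipose, against 1626 and 3183 in MEFs. On reads, the log2 difference of adipose from MEFs was -0.27 (edgeR adjusted p = 0.483), while limma on log2(RPKM + 1), from the same table, gave -0.86 (adjusted p = 0.041). For Igfbp7 the first adipose library had 6.58 fragments per read, where the other libraries had 3.57 to 4.69, and its log2 difference of muscle over adipose was -1.47 on reads (adjusted p = 0.017). For Igf1 both adipose libraries had fewer fragments per read, 1.95 and 2.09, where all others had 3.53 to 4.62. On reads, Igf1 was lower in muscle than in adipose cells (log2 -1.49, adjusted p = 0.015), a difference of -0.90 with an adjusted p of 0.152 on fragments. Igfbp6 was higher in muscle than in adipose cells on reads (log2 1.43, adjusted p = 0.011), beside 0.35 and an adjusted p of 0.644 on fragments. Without the first adipose library this Igfbp6 difference on fragments was log2 1.02.

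**Figure D5:**
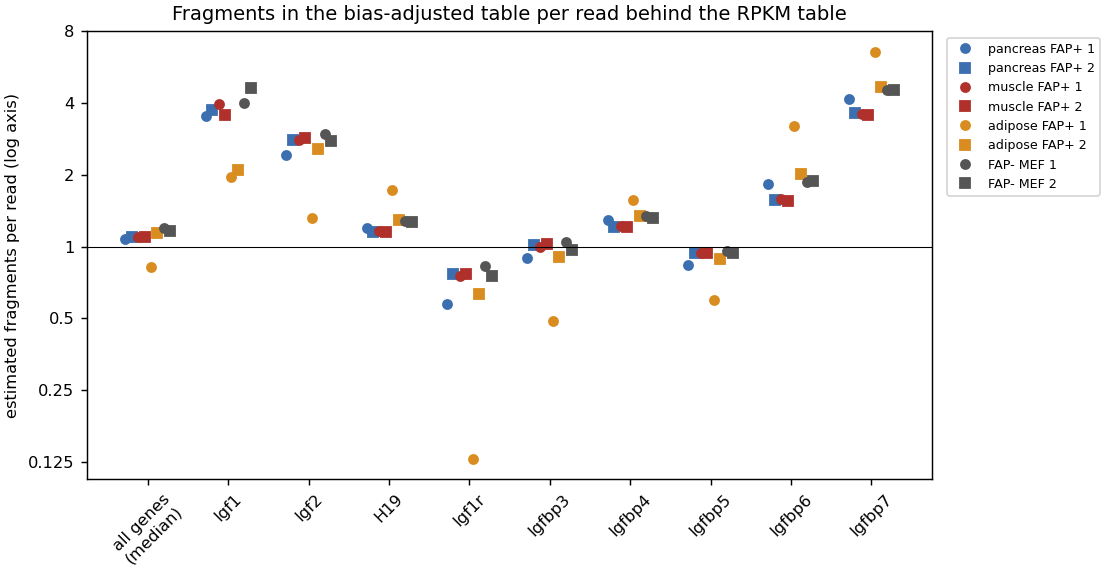
Estimated fragments in the bias-adjusted table per read behind the RPKM table (log axis) for 9 of the genes and the median of all genes, with 1 point per library. The first adipose library is lowest for Igf1r, at 0.129, and highest for Igfbp7, at 6.58.

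The other genes of the pathway were read from 8 lists of 70 genes, 66 of them tested. In pancreas cells 18 were higher and 12 lower than in MEFs, in muscle 16 and 15, and in adipose 21 and 11. These were 27.3% and 18.2% of the tested list genes in pancreas, 24.2% and 22.7% in muscle and 31.8% and 16.7% in adipose, near the shares of all tested genes (23.1% and 19.4% in pancreas, 23.7% and 20% in muscle, 26.9% and 23.2% in adipose). Their median log2 fold change was 0.11 in pancreas, 0.13 in muscle and 0.18 in adipose, where that of all tested genes was 0.02, 0.03 and 0.05 for the same tissues. Between tissues, pancreas over muscle had 1 higher and 0 lower, pancreas over adipose 0 and 2, and muscle over adipose 1 and 3. As shares these were 1.52% and 0%, 0% and 3.03%, and 1.52% and 4.55%. Over all tested genes they were 1.54% and 2.14%, 3.32% and 5.73%, and 2.34% and 3.78%. These adjusted p values are from the same edgeR fit as above. Some list genes passed the filter only through the side where they are high, and could be called in that direction alone. Among them are Ins2 and Insrr in FAP+ cells and Igf2bp1 and Syt8 in MEFs.

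All 3 genes for IGF2 mRNA binding proteins, which bind Igf2 and other transcripts and are mostly expressed before birth, were lower in all 3 tissues. Of all tested genes 19.4% were lower in pancreas, 20% in muscle and 23.2% in adipose. Igf2bp1 had 4 fragments in pancreas, 11 in muscle and 2 in adipose, against 2399 in MEFs. MEFs exceeded pancreas by a ratio of 348 (95% counting interval 136 to 1277), muscle by 128 (71.6 to 257) and adipose by 684 (189 to 5647). Igf2bp1 passed the filter through the MEF libraries alone. It could be called only as lower than MEFs, so its calls add no support to that direction. Igf2bp3 was lower than in MEFs (log2 -6.53 in pancreas, -5.86 in muscle and -6.54 in adipose), and so was Igf2bp2 (log2 -2.81 in pancreas, -2.36 in muscle and -2.25 in adipose). At the Igf2 and H19 locus itself, of 8 tested neighbours 3 were higher and 1 lower in each tissue. These were 37.5% and 12.5%, where 23.1% to 26.9% of all tested genes were higher and 19.4% to 23.2% lower. Tnnt3, a troponin gene that also stands in the list of muscle fibre markers, was higher by 3.02 log2 units in pancreas, 2.89 in muscle and 2.96 in adipose (1.74 without the first adipose library), and Lsp1, a leukocyte and stromal actin-binding protein gene, by 2.44 in pancreas, 1.62 in muscle and 1.88 in adipose. Ins2, an insulin gene, had 0 fragments in MEFs. Its group mean was at least 45.1-fold higher in pancreas, 32.6-fold in muscle and 20.7-fold in adipose, at a floor of 3 fragments per MEF library. Single libraries can lie below these bounds. Ins2, counted above among the higher, passed the filter through FAP+ libraries alone. It could be called only as higher, so its calls add no support to that direction. The adipose bound rests on the first library, with 3.51 CPM, since the second had 0.243 CPM from 6 fragments, at least 2.69-fold higher. Syt8, a synaptotagmin gene, was lower in each tissue, with 0.156 and 0 CPM in pancreas, 0.255 and 0.043 in muscle and 0.152 and 0 in adipose, against 2.73 and 3.55 in MEFs. Syt8, too, passed the filter through MEFs alone and could be called only as lower. Of 5 imprint regulators, Trim28, a corepressor that holds imprints, was lower in each tissue (log2 -0.99 in pancreas, -1.47 in muscle and -1.40 in adipose). Ctcfl, a germline relative of CTCF, was higher (log2 3.52 in pancreas, 3.76 in muscle and 2.88 in adipose) at levels of 2.03 to 5.36 CPM in FAP+ libraries.

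Among the receptors other than Igf1r, Igf2r and Insr passed in no tissue. Insrr, the insulin receptor related receptor, had 1.20 and 1.25 CPM in pancreas, 1.15 and 2.15 in muscle and 3.89 and 2.84 in adipose, while neither MEF library had a fragment. At the same floor the group means were at least 13.5-fold higher in pancreas, 18.2-fold in muscle and 37.2-fold in adipose, and single libraries can lie below these bounds. Insrr passed the filter through FAP+ libraries alone and could be called only as higher, so its calls add no support to that direction. Of the growth hormone arm, 2 of 5 genes were higher in pancreas and muscle and 4 of 5 in adipose. These were 40%, 40% and 80%, where 23.1% of all tested genes were higher in pancreas, 23.7% in muscle and 26.9% in adipose. Socs2, a feedback inhibitor of growth hormone signalling, was higher by 2.42 log2 units in pancreas, 3.04 in muscle and 2.60 in adipose, and Stat5b, the transcription factor that carries the signal to Igf1, by 1.29 in pancreas, 1.77 in muscle and 1.68 in adipose.

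Of 9 tested partners and proteases of the binding proteins, 3 were higher and 1 lower in pancreas, 3 and 2 in muscle, and 5 and 0 in adipose. As shares these were 33.3% and 11.1% in pancreas, 33.3% and 22.2% in muscle and 55.6% and 0% in adipose. Over all tested genes they were 23.1% and 19.4%, 23.7% and 20%, and 26.9% and 23.2% in the same order. Htra1, a serine protease that cuts binding proteins, was higher by 2.89 log2 units in pancreas, 2.22 in muscle and 2.63 in adipose. Adam28, a metalloprotease, was higher by 3.17 in pancreas, 3.26 in muscle and 2.63 in adipose. Adam12, a metalloprotease that cuts IGFBP3 and IGFBP5, had 2.66 and 3.07 CPM in pancreas, 3.25 and 2.49 in muscle and 48.3 and 46.5 in adipose, against 17.0 and 12.9 in MEFs. It was lower than in MEFs in pancreas and muscle (log2 -2.38 in pancreas and -2.39 in muscle) and higher in adipose (log2 1.66). Relative to adipose cells, Adam12 was -4.05 log2 units in pancreas (edgeR adjusted p = 0.0017) and -4.05 in muscle (adjusted p = 0.0015). Pappa2, a protease of IGFBP5, had 0.417 and 0.416 CPM in pancreas and 2.52 and 2.72 in adipose (log2 -2.64, adjusted p = 0.036). Stc2 and Stc1, stanniocalcins that inhibit the PAPP-A protease, were chosen after their values were seen, to complete these counts. Stc2 had 7.35 and 4.94 CPM in pancreas and 1.72 and 1.46 in muscle (log2 1.95, adjusted p = 0.042). Stc1 had 0.510 and 0.300 CPM in muscle and 1.52 and 2.07 in adipose (log2 -2.17, adjusted p = 0.0497).

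Downstream of the receptor, 2 of 11 adaptors and phosphatases were higher and 2 lower in pancreas and in adipose, and 2 and 3 in muscle. These were 18.2% and 18.2% in pancreas and in adipose and 18.2% and 27.3% in muscle. Over all tested genes 23.1% were higher and 19.4% lower in pancreas, 23.7% and 20% in muscle and 26.9% and 23.2% in adipose. Irs2, a docking protein of the insulin and IGF1 receptors, had 83.7 and 76.9 CPM in pancreas, 115 and 133 in muscle and 1520.1 and 252 in adipose, against 1.499 and 8.20 in MEFs. Every FAP+ library was above both MEF libraries, and the first adipose library stood far above the second. Its log2 difference of adipose from MEFs was 7.51, and 5.69 without the first adipose library. Sh2b2, an adaptor of the insulin receptor, was lower in muscle than in adipose cells (log2 -1.63, edgeR adjusted p = 0.031). Its adipose difference from MEFs, counted above as higher, was log2 0.89, and 0.83 without the first adipose library. Grb10 and Grb14, adaptors that restrain these receptors, were lower in FAP+ cells than in MEFs. Grb10 differed by log2 -1.81 in pancreas, -2.06 in muscle and -2.57 in adipose, and Grb14 by -4.57 in pancreas, -4.08 in muscle and -4.59 in adipose. Of 22 genes of PI3K, AKT, mTOR and FOXO, 6 were higher and 3 lower in pancreas, 4 and 4 in muscle, and 5 and 2 in adipose. As shares these were 27.3% and 13.6% in pancreas, 18.2% and 18.2% in muscle and 22.7% and 9.09% in adipose, beside the shares of all tested genes given above. The regulatory subunit genes moved apart, with Pik3r1 (log2 2.05 in pancreas, 2.64 in muscle and 1.15 in adipose) and Pik3r2 (2.04 in pancreas, 1.93 in muscle and 1.36 in adipose) higher. Pik3r3 was lower (-3.38 in pancreas, -2.86 in muscle and -2.45 in adipose), as was the catalytic subunit gene Pik3cb (-4.50 in pancreas, -3.25 in muscle and -3.34 in adipose). Foxo1, a transcription factor that AKT restrains, was higher in all 3 (log2 1.503 in pancreas, 2.35 in muscle and 1.07 in adipose) and higher in muscle than in adipose cells (log2 1.27, adjusted p = 0.047), a call that ended without the first adipose library (log2 1.11, adjusted p = 0.086).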

How the data were processed

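RNA of 8 mouse libraries in 4 groups of 2 was extracted with Purelink, amplified by MessageAmp and turned into Illumina mRNA libraries, per the labels' protocols. MessageAmp copies from the poly(A) tail, so coverage leans to the 3' end of transcripts. The authors deposited, per the file headers, bias-adjusted fragments per gene as estimated counts, matching bias-adjusted FPKM values, and RPKM values per gene. Tools named in the submitters' processing notes are TopHat2 and Bowtie2, HTSeq and edgeR, with the build mm9, and the sources used here do not name the program that adjusted for bias. Of the columns in each table, 8 matched the labels and 6 others were left out.

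The estimated counts were rounded and tested with edgeR 4.0.16 (R 4.3.3), by the quasi-likelihood test with TMM factors, filterByExpr and all 8 libraries in 1 fit, over 14847 genes with Benjamini-Hochberg adjustment in each of 6 comparisons. The common biological coefficient of variation was 33.2%. The standard error is the log2 fold change divided by the square root of F. The fit was tested on simulated data. Depth was 15516319 to 27759399 fragments per library, and a floor of 3 fragments per library was used for genes at 0. Counting intervals are exact at 95% and cover counting error only. Whole reads were recovered from the RPKM values of 21672 genes, in totals of 9494952 to 16803963 per library, and 1 gene above 0 was not recovered. A gene was accepted only where all its values were whole within 0.01, so that wholeness is no check of the recovery. A step of several reads would pass too, and would scale a gene equally in all libraries.

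As alternatives, the scaling was changed to RLE or upper quartile factors, DESeq2 1.42.0 took the place of edgeR, the filter was dropped or set to 5 CPM in at least 2 libraries, the fit was cut to the pair of groups in question, the replicate number entered as a block, and each library was left out. Limma 3.58.1 was run on log2(FPKM + 1), also with a minimum of 1 FPKM in 2 libraries, and on log2(FPKM + 0.1). The count test on recovered reads and limma on log2(RPKM + 1) were added after seeing the data. The 10 genes, the pathway and marker lists and the tests were chosen with earlier results of these data known. Pathway genes named are those called in the same direction in all 3 comparisons with MEFs, at most 4 per list, and at most 2 per list called between tissues. Genes most like Igf1 and Igf2 are the 3 with the highest Pearson r over 8 libraries. All 70 pathway genes matched a row of the table by symbol. Sequences came from RefSeq tables on GRCm38.p6, matched by symbol, with no entry used for the H19 promoter.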

Additional observations from a re-analysis of the deposited data

Results flagged for a closer look

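The differences from MEFs were themselves unequal between FAP+ tissues for 6 of the genes, by the edgeR test of 1 tissue against another, which is the test of the difference of their effects against the shared MEFs. For pancreas relative to adipose the difference in log2 fold change was -1.434 for Igf1, 1.489 for Igf2, 2.628 for H19, 2.444 for Igfbp3 and 2.462 for Igfbp5. For muscle relative to adipose it was 2.383 for Igf2, 2.795 for H19, 3.942 for Igfbp5 and -2.563 for Igfbp7. Adipose cells are in each of these pairs, and the first adipose library, whose fragments per read depart from the others, is 1 of its 2 libraries. Without that library the differences relative to adipose that stayed past the threshold were those of Igf1, H19 and Igfbp5 for pancreas and all 4 for muscle, with values of -1.21, 2.46 and 2.48 for pancreas and 2.15 (Igf2), 2.62 (H19), 3.96 (Igfbp5) and -1.54 (Igfbp7) for muscle. Igf2 and Igfbp3 in pancreas relative to adipose missed it at edgeR adjusted p values of 0.054 and 0.054, with log2 differences of 1.25 and 1.92.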

How the results depend on the processing

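Of 1197 recomputed values of the 10 genes, 1048 kept their direction and their side of the threshold, 79 kept the direction but were no longer past it, 31 came to pass it and 39 reversed. The calls against MEFs of Igf1, Igf2, H19, Igfbp2 and Igfbp6 held throughout in all 3 tissues, with Igfbp2 passing any filter through MEFs alone.

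The number of the 10 genes called in pancreas relative to adipose was 5, and became 2 with only the 2 groups compared, 2 with the replicate number as a block, 2 on log2(FPKM + 1), 2 on log2(FPKM + 0.1), 3 on genes of 1 FPKM or more in 2 libraries and 0 to 8 with 1 library left out. In muscle relative to adipose it was 4, and became 1 with only the 2 groups compared, 2 on log2(FPKM + 1) and 0 to 7 with 1 library left out. In pancreas relative to muscle it was 0, and became 2 by DESeq2, 5 with only the 2 groups compared and 0 to 1 with 1 library left out. Igfbp2 could not be tested between tissues with only the 2 groups compared. Deviations of same-numbered libraries correlated at r = 0.347 between adipose and pancreas and at -0.156 to 0.113 between the other groups. The numbers were not taken as a pairing, though these values do not exclude one for adipose and pancreas. The block left the counts of these genes other than that of pancreas relative to adipose within 1.5 times.

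Reversed values were all of genes short of the threshold. For adipose relative to MEFs, Igfbp5 (0.00) was -0.045 with upper quartile scaling, -0.077 with no filter, -0.90 on log2(FPKM + 1) with and without the minimum, -0.995 on log2(FPKM + 0.1), -0.55 on log2(RPKM + 1) and -0.47 to 0.69 with 1 library left out. Igfbp3 was -1.09 to 0.63 with 1 library left out. For pancreas relative to MEFs, Igf1r (0.04) was -0.011 with no filter, -0.34 on log2(FPKM + 1) with and without the minimum, -0.38 on log2(FPKM + 0.1), -0.14 on log2(RPKM + 1) and -0.33 to 0.54 with 1 library left out, and for muscle it was -0.51 to 0.39. For pancreas relative to adipose, Igfbp6 (-0.51) was 0.24 on log2(FPKM + 1) with and without the minimum, 0.24 on log2(FPKM + 0.1), 0.43 on reads, 0.79 on log2(RPKM + 1) and -0.97 to 0.17 with 1 library left out, and Igfbp2 was -5.39 to 5.57. For muscle relative to adipose, Igfbp2 (-0.78) was 0.059 on log2(FPKM + 0.1), 0.19 on reads, 0.038 on log2(RPKM + 1) and -1.48 to 4.58 with 1 library left out, Igfbp4 (0.03) was -0.031 with RLE scaling and -0.031 by DESeq2, and Igfbp6 was -0.11 to 1.02. For pancreas relative to muscle with 1 library left out, H19 was -0.33 to 0.0043, Igf1r -0.053 to 0.33 and Igfbp2 -4.64 to 1.97. The cause of these changes was not tested.

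Over all genes, calls in adipose relative to MEFs were 7445, and 4588 with only the 2 groups compared and 4321 to 9491 with 1 library left out (lowest without the first MEF library). In muscle relative to MEFs they were 6500 and 3382 to 8987 with 1 left out, with 3382 to 4271 without a muscle or MEF library. In pancreas relative to MEFs they were 6310 and 3506 to 8830, with 3506 to 4159 without a pancreas or MEF library. In muscle relative to adipose they were 908, and 2029 by DESeq2, 74 with only the 2 groups, 451, 363 and 495 on the 3 FPKM analyses, 1935 on reads and 51 to 5410 with 1 library left out (51 and 95 without the first and second muscle library, 5410 without the second adipose library). In pancreas relative to adipose they were 1344, and 2405 by DESeq2, 305 with only the 2 groups, 836, 764 and 872 on FPKM, 3234 on reads, 2771 on RPKM and 8 to 5077 with 1 left out (32 and 8 without the first and second pancreas library, 5077 without the second adipose library). In pancreas relative to muscle they were 545, and 1055 by DESeq2, 1752 with only the 2 groups, 864 on reads and 58 to 1205 with 1 left out (58 without the first pancreas library, 1205 without either adipose library). The shares of all genes called, set beside the counts of these genes, move with these totals. With 2 libraries per group and few fragments, differences of Igfbp2 between FAP+ tissues were not detectable at this depth.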
